A study of Mus musculus with 6 samples.

Results

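The genes that encode the proteins of the cytosolic ribosome were examined in embryonic mouse ventral midbrain (E14.5) that lacked the homeobox transcription factor Pitx3. Members were all probes whose gene symbol on the array platform was Rpl or Rps followed by digits, with or without an a, l, x or y ending, or was Rplp0, Rplp1, Rplp2 or Rpsa. Genes of the ribosomal S6 kinases and of the mitochondrial ribosome were left out. The rule found 118 of 31769 gene probes. They stand for 66 of 17888 gene symbols, with 41 genes of the large subunit (75 probes) and 25 of the small subunit (43 probes). One probe stood for each of 32 genes, and the other 34 genes had between 2 and 5 probes.

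RNA came from 3 pools of Pitx3-/- ventral midbrain, each from 3 E14.5 embryos, and from 1 reference pool of Pitx3+/+ ventral midbrain from 10 embryos of the same stage. Pitx3 is needed for the survival of the dopaminergic neurons of the substantia nigra, so the comparison asks which transcripts change in their region of origin when the factor is missing. Each mutant pool was hybridised with the reference on 2 spotted long-oligonucleotide arrays, with mutant RNA in Cy5 on 1 array and in Cy3 on the other, which gave 6 two-colour arrays. The 2 arrays of a pool share both RNAs, so the pool was the replicate (n = 3). The reference is a single pool, and the spread among wild-type embryos does not enter any test. The tissue is a dissected region with many cell types, and fewer cells of a type cannot be told apart from less RNA per cell.

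The ribosome joins a small subunit, which decodes the message, to a large subunit, which links the amino acids. Its proteins are made in every growing cell, and their messages are among the most abundant in developing tissue. Most of these messages begin with an oligopyrimidine tract, a C followed by further C or T letters, through which growth signals acting on the kinase mTOR control how strongly they are translated. The promoters often lack a TATA box and carry sites for ETS family factors. Many ribosomal protein genes have processed pseudogenes with nearly the same sequence, and a long oligonucleotide probe may not tell such copies apart.

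The RefSeq promoter table of the mouse assembly GRCm38.p6 held 300 bases for each promoter, 250 before and 50 after the annotated start, and 53 of the 66 genes were in it. A C at the annotated start followed by at least 5 further C or T letters was present in 10 of the 53 genes (18.9%) and in 2.05% of all 27025 genes of the table. A run of at least 8 C or T letters that opens with C within 25 bases of the annotated start was present in 31 of 53 (58.5%) and in 18.7% of all genes, a search that was chosen after the sequences had been seen. The letters CCGGAAG, the core bound by ETS factors, stood on either strand of the 300 bases in 24 genes (45.3%), against 9.93% of all genes. TATAAA stood on either strand in 6 (11.3%), against 15.7% of all. A match is a description of the letters and not a mapped start or binding site.

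For 7 genes to which the results return, 30 bases near the annotated start follow, 5′ to 3′ on the strand of the gene. Each stretch opens 5 bases before the run, and capitals mark the run of C and T letters. They are shown because such a run was the most common of the 4 features searched, and because the 7 genes differ in the measurements: Rps18, Rps10 and Rps26 are among the 8 highest mutant ratios by each gene's brightest probe, Rpl4 is among the 8 lowest, and Rpl11, Rpl35 and Rpl15 carry dye effects described further on.
Rps18, chr17:33955643-33955672, minus strand: ttccgCTCTCTCTTCCacaggaggcctaca
Rps10, chr17:27635223-27635252, minus strand: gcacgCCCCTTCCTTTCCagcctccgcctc
Rps26, chr10:128626478-128626507, minus strand: cggatCCTCTTTCgagtcttggctccaaga
Rpl4, chr9:64173365-64173394, plus strand: caagtCTTTCCTTTTCCTgtgggagcagcc
Rpl11, chr4:136053355-136053384, minus strand: gaagtCTCCCTCTCTCTTCCTgttctccac
Rpl35, chr2:39005114-39005143, minus strand: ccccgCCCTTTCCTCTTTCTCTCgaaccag
Rpl15, chr14:18270966-18270995, minus strand: gaaagCCTTCTTCCTTTCCTCTggcggcag

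On the whole arrays, the median gene probe read 70.6 to 77.5 raw scanner units in Cy5 and 46.2 to 50.4 in Cy3. A probe was called above background at more than 2 SDs over its mean local background, which held for 46.1% to 51.7% of gene probes in the mutant channel and 47.5% to 54.6% in the reference channel. The Pitx3 probe was above background on none of the 6 arrays in either channel, so it cannot check the genotype. Of 12 ventral midbrain markers, 10 were above background on all arrays; -0.36 ± 0.032 for Slc18a2, the vesicular monoamine transporter, and 0.79 ± 0.11 for En2, a midbrain patterning factor, were their lowest and highest log2 ratios (limma adjusted p = 0.187 and 0.208). Pool 3 differed from pools 1 and 2 in 3 of 6 markers of neighbouring hypothalamus. Dlx1 had log2 ratios of -0.90, -0.94 and 0.050 in pools 1, 2 and 3, Isl1 had -0.63, -0.54 and 0.054, and Dlx2 had -0.46, -0.42 and 0.019 (moderated F test of the pools, adjusted p = 2.27e-05, 0.000354 and 0.000589). The other markers of that list did not pass, with -0.011, -0.057 and -0.033 for Nkx2-1, -0.017, -0.035 and -0.0084 for Six6 and -0.0031, 0.031 and -0.014 for Pomc. Values are given per pool, and counts also without pool 3.

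The ribosomal protein messages gave some of the brightest spots on the arrays. Of the 118 probes, 105 (89.0%) were above background in at least 1 channel on all 6 arrays, against 13882 (43.7%) of all gene probes, and 103 were above it in both channels. By the mean log2 intensity of both channels, 77 of the 118 lay above the 90th percentile of all gene probes, and 27 lay above the 99th, a range that holds 317 probes in all. The median member read 506 in Cy5 and 231 in Cy3, and the median of all gene probes was 75.2 and 49.4. Brightness also depends on the probe, so these values rank spots and not the abundance of one message against another.

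The brightest member was the probe for Rplp1, an acidic protein of the stalk that recruits elongation factors to the large subunit. In Cy5, its raw signal was 14006, 9675 and 8995 for mutant pools 1, 2 and 3, against 13638, 12393 and 11092 for the reference on the paired arrays. In Cy3 it was 5390, 5059 and 4764 for the mutant pools, against 5790, 4894 and 3572 for the reference. These raw values are not scaled between arrays. The groups overlap in both dyes, and each Cy5 value exceeds each Cy3 value. The next brightest were Rpl11, whose protein can bind the p53 regulator Mdm2, Rpl35, a protein at the exit of the peptide tunnel, Rps29 and Rps3a. Their mean log2 intensities were 12.72, 12.60, 12.40 and 12.23, against 12.87 for Rplp1. The highest raw reading of a member was 15591, below the highest reading on the arrays, 29536.

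At the dim end stood Rplp2, the partner of Rplp1 in the stalk, with a mean log2 intensity of 5.97. It was above background on 4 of 6 arrays in the mutant channel and 3 of 6 in the reference channel. Rpl3l, a paralogue of Rpl3 expressed mainly in striated muscle, had 3 probes: the brightest read 5.98 and was above background on 1 of 6 arrays in the mutant channel and 4 of 6 in the reference channel, and the other two were above it on none. The other dim genes, by their brightest probe, were Rpl29 (6.02), Rps7 (6.09) and Rpl19 (6.39). In all, 5 of the 118 probes were not well above background on any array: both further Rpl3l probes and 1 probe each of Rpl4, Rpl41 and Rps21. These 4 genes also had brighter probes.

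Between mutant and reference, the ribosomal protein genes were close to even. No ribosomal protein probe passed the test of the log2 ratio against 0 over the 3 pools (0 of 118; 0% of all 31769 gene probes, limma with Benjamini-Hochberg adjustment, threshold 0.05). The lowest adjusted p among the members was 0.908. With no background subtraction, with median centring, with the authors' own normalised values and with 6 arrays fitted with the pool as a random block the count was 0 as well. At an unadjusted p under 0.05 there were 10 members (8.47%), 8 higher in the mutant (6.78%; 2.46% of all gene probes) and 2 lower (1.69%; 2.41% of all), and 4.87% of all gene probes passed in either direction. The higher ones were probes of Rps14, Rps18, Rps21, Rps26, Rpl7a, Rpl36a, Rpl39 and Rpl41, and the lower ones were probes of Rpl8 and Rps20. This Rps20 probe was above background on 5 of 6 arrays in each channel. Among probes above background the shares were 8.57% of members and 9.48% of all. The mean log2 ratio of the members had a median of 0.0093, against -0.00010 over all gene probes, and -0.0615 over the members with median centring in place of loess. It ranged from -0.088 (Rpl8) to 0.11 (Rpl41). It lay within 0.1 of 0 for 116 of the 118 (98.3%), against 98.7% of all gene probes.

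The 95% interval of a member's ratio had a median half-width of 0.059, against 0.037 over all gene probes and 0.044 over those above background. For 117 of the 118 probes the whole interval lay within 0.25 of 0 on the log2 scale, as it did for 31439 of all 31769 gene probes. The offset of 50 added to each signal draws the ratios of dim probes towards 0, so these bounds hold for the shrunken scale. The widest interval belonged to Rpl36, with a half-width of 0.20 and ratios of 0.15, 0.025 and -0.24 in pools 1, 2 and 3. On probes brighter than 10 in log2 intensity, where the offset matters least, the 34 members had a median ratio of 0.022 and a median half-width of 0.074, and all 482 gene probes of that brightness had 0.0075 and 0.071.

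**Figure D1:**
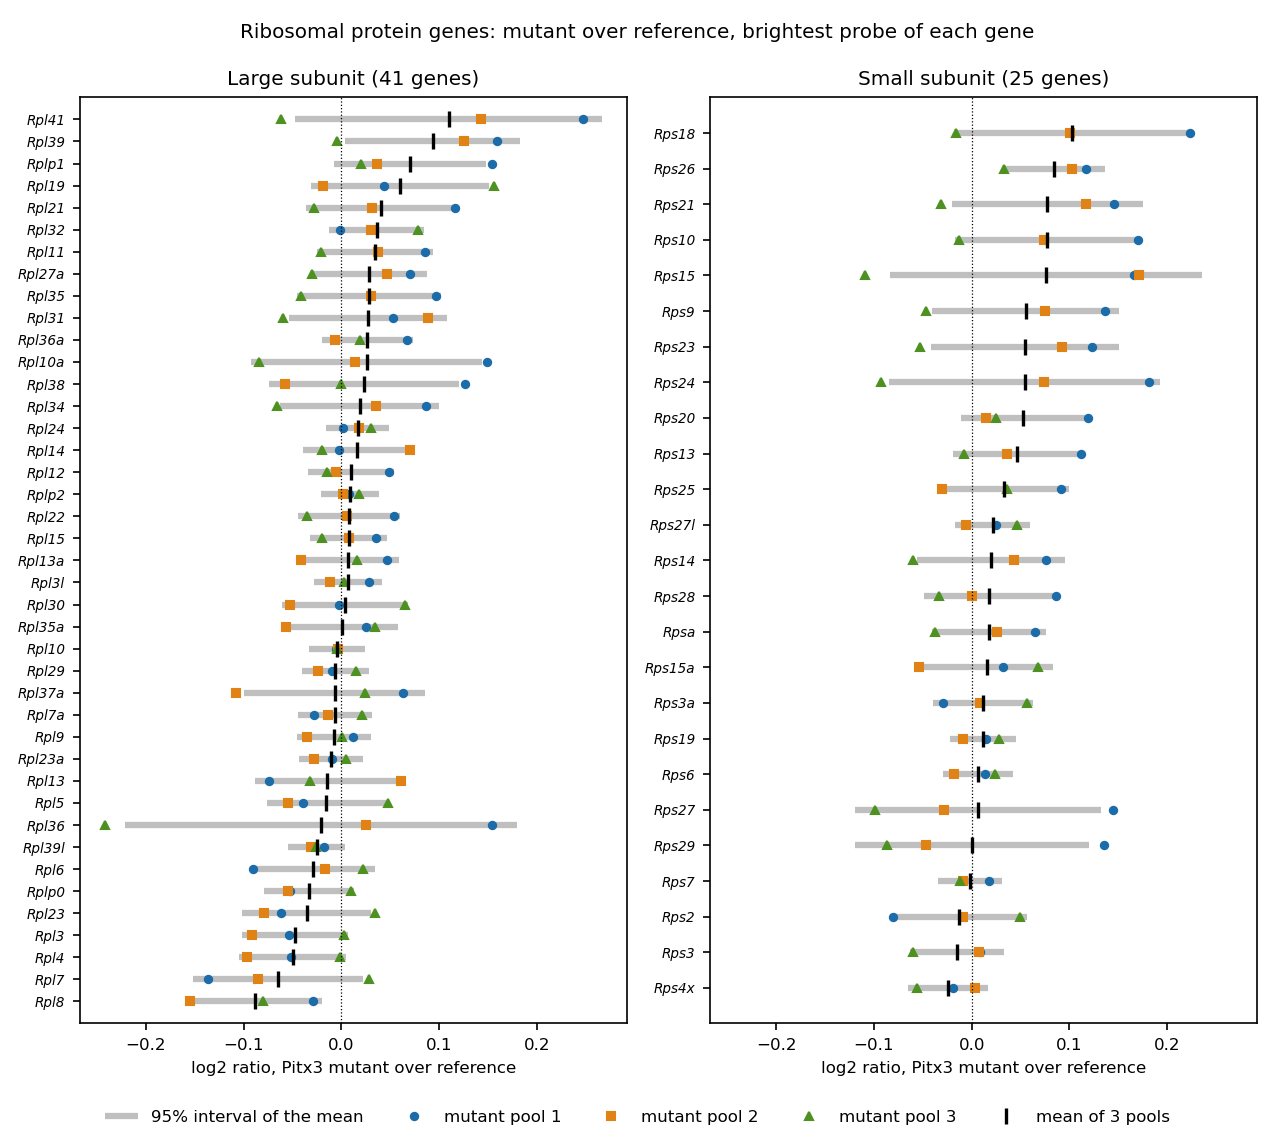
Log2 ratio of mutant over reference for the brightest probe of each of the 66 ribosomal protein genes, with 1 symbol for each of the 3 mutant pools (mean of 2 dye-swapped arrays), a black bar for their mean and a grey band for its 95% interval. The means run from -0.088 for Rpl8 to 0.11 for Rpl41, and pool 1 gives the highest value for 38 of the 66 genes.

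By each gene's brightest probe, the highest ratio among proteins of the large subunit was that of Rpl41, a very short basic peptide of the ribosome. Its brightest probe had log2 ratios of 0.25, 0.14 and -0.062 in pools 1, 2 and 3, a mean of 0.11 ± 0.16 (SD, n = 3; 95% interval -0.047 to 0.27; adjusted p = 0.908). Pools 1 and 2 were above 0 and pool 3 below it. A second Rpl41 probe of nearly the same brightness gave 0.20, 0.054 and 0.044, all above 0, and it is 1 of only 3 members with the same sign on all 6 arrays (2.54%, against 2.63% of all gene probes).

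Rpl39, which lines the end of the peptide exit tunnel, followed with 0.16, 0.13 and -0.0049 in the 3 pools (mean 0.093 ± 0.086). Rplp1 had 0.15, 0.036 and 0.020 (mean 0.070 ± 0.073). Both were highest in pool 1 and lowest in pool 3, and neither passed after adjustment (both adjusted p = 0.908).

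The lowest ratio in the set was that of Rpl8, a protein near the site of peptide bond formation, with -0.029, -0.15 and -0.080 in pools 1, 2 and 3 (mean -0.088 ± 0.063, 95% interval -0.16 to -0.020, unadjusted p = 0.0213, adjusted p = 0.908 by limma). It was below 0 on all 6 arrays. Rpl7 had -0.14, -0.086 and 0.028, Rpl4, which lines the exit tunnel, had -0.052, -0.097 and -0.0012, and Rpl3, another protein near the catalytic centre, had -0.053, -0.091 and 0.0023. In these 3 genes pools 1 and 2 were below 0, pool 3 was the highest, and the intervals of the means reached 0. Rpl23, which lies at the interface of the subunits, averaged -0.035 ± 0.061, and Rpl6 averaged -0.029 ± 0.057.

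The stalk holds Rplp0 at its base with Rplp1 and Rplp2 on it, and their ratios differed in sign. Rplp0 had -0.053, -0.055 and 0.0095 on its brighter probe and -0.094, -0.11 and 0.094 on its dimmer one, below 0 in pools 1 and 2 and above it in pool 3 on both. Rplp1 was above 0 in all 3 pools. Rplp2 had 0.0078, 0.0020 and 0.018 at a signal near background, which gives little information on its level.

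In the small subunit, the highest ratios by each gene's brightest probe were those of Rps18, Rps26, Rps21, Rps10 and Rps15. Rps18, a protein of the head of the subunit, had 0.22, 0.10 and -0.016 on its brightest probe and 0.098, 0.083 and 0.036 on a dimmer one, whose mean of 0.072 ± 0.032 had the lowest unadjusted p of the set (0.00779; adjusted p = 0.908, limma). Rps26, which contacts the message at its exit from the subunit, had 0.12, 0.10 and 0.033 in the 3 pools (mean 0.084 ± 0.045, 95% interval 0.032 to 0.14). The dimmer Rps18 probe and this Rps26 probe, the brighter of 2, were above 0 in all 3 pools. The dimmer Rps26 probe had 0.097, 0.063 and -0.0305. Both it and the brighter Rps18 probe were above 0 in pools 1 and 2 only.

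Rps10, a protein at the message entry side, had 0.17, 0.074 and -0.013, and Rps21 had 0.15, 0.12 and -0.031. Rps15, which lies near the decoding site, had 0.17, 0.17 and -0.11. In these 3 genes pool 3 lay below 0 and pools 1 and 2 above it. The log2 ratios had medians of 0.065, 0.0040 and -0.013 in pools 1, 2 and 3 for the small subunit and 0.026, -0.0095 and 0.0081 for the large one. Pool 1 was highest in both.

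Paralogues and X-linked members gave ratios within the range of the others. Rpl39l, a paralogue of Rpl39 known from the testis, had -0.018, -0.031 and -0.026 (mean -0.025 ± 0.0066), below 0 in all 3 pools with little spread, at an adjusted p of 0.908. Rps27l, a paralogue of Rps27 that p53 can induce, had 0.025, -0.0060 and 0.046, and the brightest Rpl3l probe, near background, had 0.028, -0.012 and 0.0024. The X chromosome carries 4 of the 66 genes (Rpl10, Rpl36a, Rpl39 and Rps4x), and their 6 probes had a median ratio of 0.024, from -0.024 to 0.093. Rpl10, which joins the large subunit late in its assembly, had -0.0058, -0.0035 and -0.0044, the tightest of the set. Rpl36a had 0.067, -0.0065 and 0.019 on its brighter probe and 0.16, 0.057 and 0.028 on the other. Rps4x had -0.019, 0.0035 and -0.056 on its brighter probe and 0.039, -0.0070 and 0.030 on the other one. Rpsa, also known as the precursor of a laminin receptor, had 0.065, 0.026 and -0.038 (mean 0.018 ± 0.052).

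The share of members that kept their direction was no higher than that of all gene probes. The same sign in all 3 pools was seen for 23 of 118 probes (19.5%), against 25.5% of all gene probes, with 15 above 0 (12.7%, against 12.9%) and 8 below it (6.78%, against 12.6%). The log2 ratios of pools 1 and 2 correlated across the 118 probes (Pearson r = 0.59, Spearman rho = 0.52), and those of pools 1 and 3 and of pools 2 and 3 ran the other way (r = -0.38 and -0.29). Over all 31769 gene probes the same values of r were 0.59, -0.21 and -0.19. Probes of an array are not independent, and all ratios share the reference RNA, so these values describe the arrays only.

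Without pool 3, 14 of the 118 probes passed the same test (11.9%; 4.86% of all gene probes), 12 higher (10.2%; 2.01% of all) and 2 lower in the mutant. They were probes of Rpl39, Rpl41, Rps9, Rps10, Rps23 and Rps26 and 2 probes each of Rps15, Rps18 and Rps21, all higher, and of Rpl7 and Rplp0, both lower. Only 2 of the 14, the brighter Rps26 probe and the dimmer Rps18 probe, had the same sign in pool 3, as did 386 of the 1543 gene probes that passed. Leaving out pool 1 or pool 2 gave no call among the members. The fit without pool 3 rests on 2 pools. Its shares were not computed among probes above background, a set that takes in 89.0% of members and 43.7% of all gene probes. An excess among the members can therefore not be told apart from their brightness.

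The mutant pools differed from each other in some ribosomal protein genes by more than their 2 arrays did. With both arrays of a pool as separate values and a dye term, a moderated F test of the differences among the pools passed for 14 of 118 probes (11.9%; 4.4% of all gene probes). Among probes above background the shares were 13.3% of the members and 9.98% of all. Brighter than 10 in log2 intensity, 10 of 34 members and 110 of all 482 gene probes passed. Between 8 and 10 it was 3 of 33 members and 432 of all 1912, and up to 8 it was 1 of 51 and 857 of all 29375. The spread in this test is between arrays of the same RNA, so it is technical. The 14 probes belong to 12 genes, with 10 probes of the small subunit and 4 of the large one, and their median log2 ratios were 0.15, 0.074 and -0.054 in pools 1, 2 and 3. Pool 1 was highest in 12 of the 14 and pool 3 lowest in 11. The count changed with the processing: 1 member passed with no background subtraction, 6 with the authors' normalised values, and 0 with an offset of 0 or with median centring.

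The lowest adjusted p of this test belonged to Rps15 (0.00377), whose brightest probe gave 0.15, 0.20 and -0.065 with mutant RNA in Cy5 and 0.18, 0.14 and -0.15 with mutant RNA in Cy3, for pools 1, 2 and 3. A second Rps15 probe passed as well (0.16, 0.080 and -0.078; adjusted p = 0.00917). Rps29, a small zinc-binding protein, had 0.14, -0.047 and -0.087 in the pools on its brightest probe (adjusted p = 0.00656), and Rpl41 passed too (adjusted p = 0.00825). Rps24 had 0.18, 0.074 and -0.093 and Rps9 had 0.14, 0.075 and -0.046. These probes of Rps29, Rpl41, Rps24 and Rps9 were highest in pool 1 and lowest in pool 3, and the brightest Rps15 probe had pools 1 and 2 level with each other.

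Other orders were seen in Rpl37a, another zinc-binding protein, with 0.063, -0.11 and 0.024, and Rpl30, with -0.015, -0.068 and 0.099 on the probe that passed. In Rpl37a pool 2 was the lowest, and in Rpl30 pool 3 was the highest. A second Rps29 probe had 0.13, -0.030 and 0.017, with pool 2 lowest. The remaining genes with a call were Rpl10a, Rps10, Rps18, Rps21 and Rps27.

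**Figure D2:**
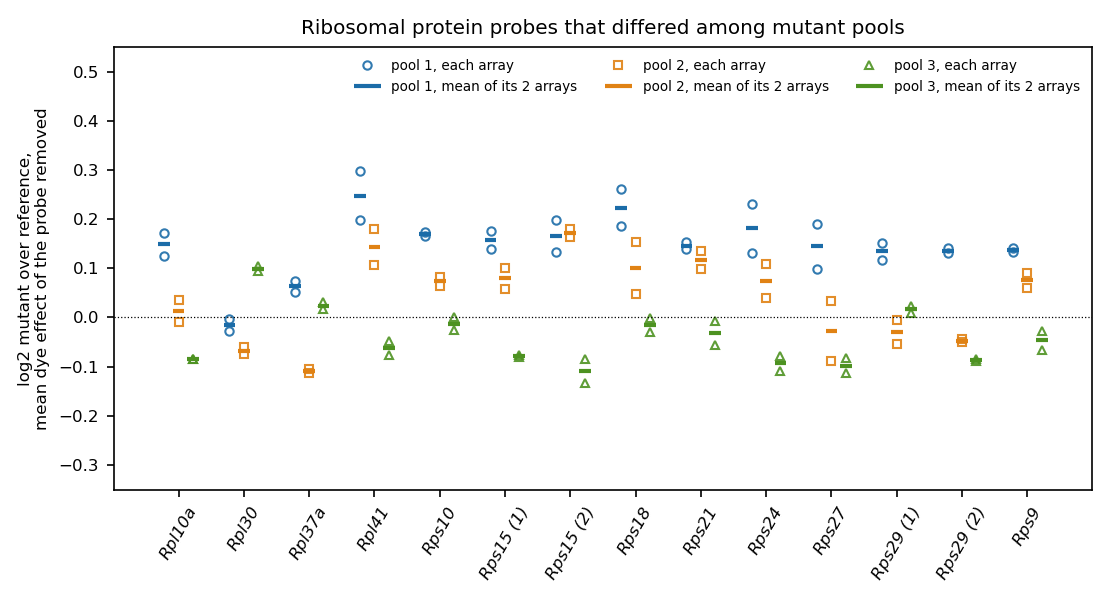
Log2 ratios of mutant over reference on each of the 6 arrays, with the probe's mean dye effect taken off, for the 14 ribosomal protein probes whose pools differed (adjusted p under 0.05, moderated F test). Open symbols are single arrays and bars the mean of the 2 arrays of a pool; pool 1 is highest in 12 of the 14 probes and pool 3 lowest in 11.

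Some markers of the ventral midbrain and of other cells passed the same test of pool differences. Of the 12 ventral midbrain markers 5 passed. In pools 1, 2 and 3 En1 had 0.82, 0.86 and 0.39, and En2 had 0.79, 0.90 and 0.68. Foxa1 had 0.28, 0.28 and 0.063, Foxa2 had 0.13, 0.34 and 0.069, and Th had 0.021, -0.22 and -0.23. The counts in the other lists were 3 of 6 hypothalamic markers (Dlx1, Dlx2 and Isl1), 2 of 7 erythroid (Hba-a1 and Hbb-y), 1 of 6 neuronal (Tubb3) and 1 of 8 progenitor (Nes). They were 0 of 7 microglial markers and 0 of 9 of meninges and vessels, against 4.4% of all gene probes. Of the hypothalamic markers 5 were above background on all arrays, and the values of all 6 are given above. Of the progenitor markers 7 were above background on all arrays. Nes, an intermediate filament of neural progenitors, had 0.33, 0.26 and -0.093 in pools 1, 2 and 3. Among those that did not pass, Vim (0.14, 0.11 and -0.065), Mki67 (0.067, 0.051 and -0.020), Top2a (0.071, 0.031 and -0.047) and Ccnd1 (0.0070, 0.00080 and -0.042) were highest in pool 1 and lowest in pool 3. Sox2 (-0.10, -0.054 and -0.026), Pax6 (-0.089, -0.034 and 0.020) and Pcna (-0.038, -0.0076 and 0.013) had the opposite order. The 7 erythroid markers, 5 above background, had median ratios of 0.015, -0.021 and -0.012, and the 6 neuronal markers, also 5 above background, had -0.028, 0.052 and 0.046. Of the 7 microglial markers 4 were above background, with medians of 0.040, 0.013 and 0.010, and of the 9 markers of meninges and vessels 6 were, with 0.018, 0.019 and 0.0049. Markers never above background in either channel were Pax6, Map2, Slc4a1, Trem2, Lum, Col3a1, Six6 and Lmx1b. The part of these cells in the pool differences was not tested.

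By their medians, dye effects were larger than mutant ratios on these probes and on all gene probes. The dye effect, the mean log2 ratio of Cy5 over Cy3 in a pool's dye-swapped arrays, passed its own test for 56 of 118 probes (47.5%; 25.6% of all gene probes), with 22 towards Cy5 (18.6%; 12.9% of all) and 34 towards Cy3 (28.8%; 12.6% of all). Among probes above background it passed for 53.3% of members and 36.8% of all. The median size of the dye effect was 0.046 over the members, and the median size of the mutant ratio was 0.020. Over all gene probes these were 0.024 and 0.012. Brighter than 10 in log2 intensity they were 0.096 and 0.027 over the members and 0.080 and 0.032 over all. The direction of a dye effect is relative to other probes of the same brightness, because the loess curve had removed the common part, and with median centring in its place 107 of 112 calls lay towards Cy5. With an offset of 0, no probe of the arrays passed this test.

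The strongest dye effect among the 118 probes belonged to Rpsa. Its log2 mutant ratio was -0.69, -0.55 and -0.67 with mutant RNA in Cy5 (pools 1, 2 and 3) and 0.82, 0.60 and 0.60 with mutant RNA in Cy3. The sign turned with the dye in every pool. The dye effect was -0.76, -0.57 and -0.64 in the 3 pools, a mean of -0.66 ± 0.094 (SD, n = 3; limma adjusted p = 6.03e-06), while the mutant ratio averaged over both dyes was 0.018.

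By each gene's brightest probe, Rpl11, Rpl35 and Rpl13 followed with dye effects of -0.44 ± 0.10, -0.36 ± 0.082 and -0.31 ± 0.13, and Rps26 and Rplp1 had -0.27 ± 0.097 and -0.24 ± 0.034. All of these lay towards Cy3 relative to the loess curve (adjusted p from 3.05e-05 for Rplp1 to 0.000698 for Rpl13, limma). Under median centring each of them lay towards Cy5. Rpl9, Rps23, Rps3a, Rpl12 and Rpl27a were also among the 10 genes of lowest p, with effects on their brightest probes of -0.18 ± 0.033, -0.19 ± 0.050, -0.16 ± 0.036, -0.15 ± 0.037 and -0.14 ± 0.032. By the same measure the strongest effects towards Cy5 were those of Rpl13a, with 0.14 ± 0.069, Rpl3, with 0.12 ± 0.034, Rps19, a gene mutated in human Diamond-Blackfan anaemia, with 0.11 ± 0.0088, Rps28, with 0.088 ± 0.039, and Rps21, with 0.083 ± 0.022.

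The direction of the dye effects differed with brightness. Of the 34 members brighter than 10 in log2 intensity, 24 passed, 22 of them towards Cy3, and of all 482 gene probes that bright 320 passed, 283 towards Cy3. Of the 33 members between 8 and 10, 18 passed, 10 of them towards Cy3, and of all 1912 gene probes in that range 1166 passed, 381 towards Cy3. Of the 51 members up to 8, 14 passed, 2 of them towards Cy3, and of all 29375 gene probes in that range 6637 passed, 3352 towards Cy3. Across the 118 probes the dye effect and the log2 intensity correlated negatively (r = -0.53, rho = -0.49), and across all 31769 gene probes r was -0.064 and rho 0.16. These values describe probes that share arrays and labelling. The dye effect of a probe came back in each pool, with r of 0.85 to 0.91 between pools across the members. The loess curve was fitted on the same arrays and brightness axis.

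**Figure D3:**
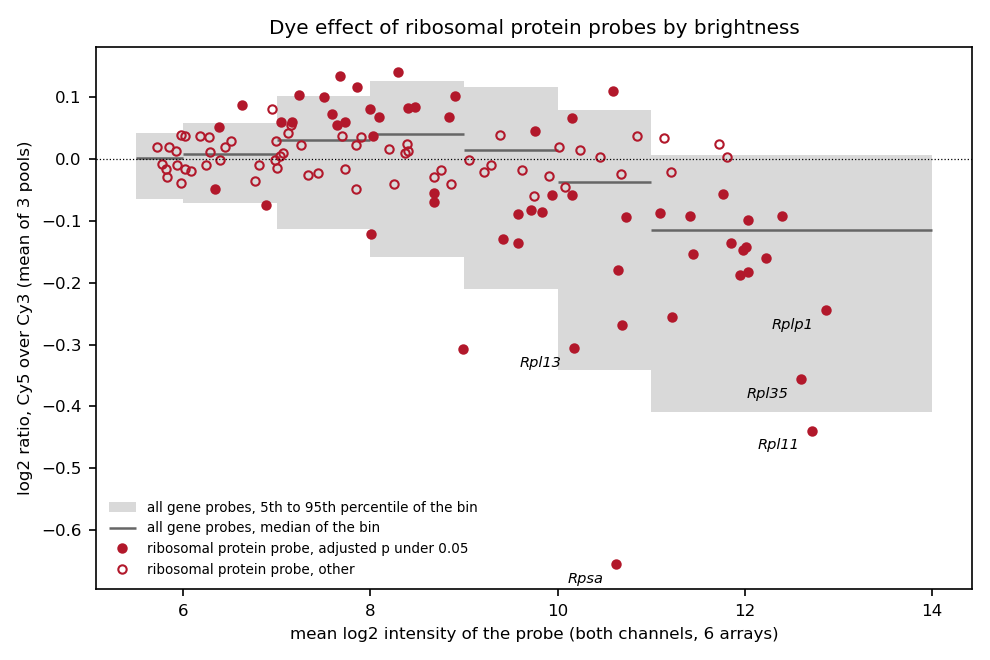
Dye effect (mean log2 ratio of Cy5 over Cy3 in 3 pools) of the 118 ribosomal protein probes against their mean log2 intensity. Filled points passed the test (56 probes), and grey bands and lines show the 5th to 95th percentile and the median of all gene probes in the same range of brightness. Bright members lie mostly below 0, with Rpsa the lowest at -0.66.

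Probes of 1 gene differed in their dye effect. Among the 34 genes with several probes, the gap between a gene's highest and lowest probe had a median of 0.10 for the dye effect and 0.038 for the mutant ratio, and the dye gap was the wider in 24 genes. In 8 genes (Rpl6, Rpl9, Rpl15, Rpl21, Rpl24, Rpl27a, Rps14 and Rps29) calls of both directions fell on the same gene. Rpl24 had -0.26 ± 0.095 on its bright probe and 0.081 ± 0.040 on a dimmer one, and mutant ratios of 0.017 and 0.020. Rpl15 likewise had -0.089 ± 0.064 and 0.067 ± 0.016, with mutant ratios that differed by only 0.0011. In both genes the probes went opposite ways between the dyes. These 2 genes had the narrowest gaps in mutant ratio of the 34, with means near 0. By pool, the Rpl15 probes had 0.035, 0.0082 and -0.020, and 0.0090, -0.0495 and 0.060. Among the 8 genes, mean mutant ratios differed in sign between the probes of Rpl6 (-0.029 and 0.0043), Rpl9 (-0.0076, -0.019 and 0.031) and Rpl21 (0.040, 0.026 and -0.0016). They did not in Rpl27a and Rps14.

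The widest gaps in mutant ratio were those of Rpl41, Rps20, Rpl7a, Rps21 and Rps10, at 0.12, 0.11, 0.10, 0.080 and 0.073. In Rpl41 and Rps21 the gap came from a probe that was not well above background. Rps20 had 0.12, 0.015 and 0.025 on its brighter probe, above 0 in all 3 pools, and -0.059, -0.11 and -0.014 on the dimmer one, below 0 in all 3. Rpl7a had 3 probes with mean log2 intensities of 9.91, 9.62 and 8.98. The second of them was unsteady, with raw Cy5 signals from 331 to 4209 over the arrays and 3202 and 331 on those of pool 2. The brightest gave -0.028, -0.014 and 0.021 in the 3 pools, the next gave -0.0011, -0.12 and -0.069, and the dimmest gave 0.040, 0.054 and 0.033. Only the dimmest was above 0 in every pool, and it also had the lowest dye effect of these probes (-0.31 ± 0.13). None of these mutant ratios passed after adjustment.

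On arrays of 1 dye orientation the mutant ratio and the dye effect cannot be told apart, and such arrays alone gave calls. The 3 arrays with mutant RNA in Cy5 gave 5 calls among the members (4.24%; 0.982% of all gene probes), 1 higher and 4 lower, and the 3 with mutant RNA in Cy3 gave 11 (9.32%; 1.35% of all), all higher. Rpl11 averaged -0.41 with the mutant in Cy5 and 0.47 with it in Cy3, and Rpl35 averaged -0.33 and 0.38. Averaged over both, they gave 0.034 and 0.028.

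**Figure D4:**
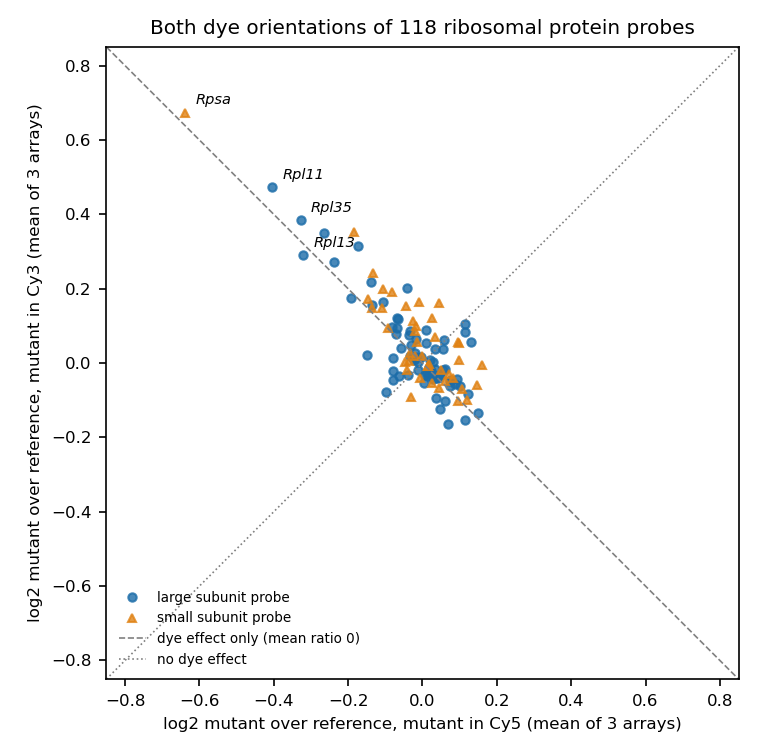
Log2 ratio of mutant over reference of each of the 118 ribosomal protein probes, with the mutant in Cy5 on the x axis and in Cy3 on the y axis (means of 3 arrays each). Points near the falling dashed line carry a dye effect and a mean mutant ratio near 0, as Rpsa does (-0.64 and 0.67).

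Genes that work with the ribosome gave no call between mutant and reference in the same limma fit. Each list took 1 probe per gene, the brightest. Over all gene probes, 2.46% were higher and 2.41% lower at an unadjusted p under 0.05. Of 29 translation factors 28 were measured, all above background, and 0 passed, with 2 higher and 2 lower at an unadjusted p under 0.05. Their median ratio was -0.013, with -0.059 ± 0.0089 for Eif4e, the protein that binds the cap of the message, and 0.10 ± 0.083 for Eif5a, which helps the ribosome through difficult peptide bonds. All 34 ribosome biogenesis genes were measured, 0 passed (2 higher and 1 lower unadjusted), and their median was -0.0010. Polr1d, a subunit shared by RNA polymerases that make ribosomal and transfer RNA, had 0.044, 0.040 and 0.036 in pools 1, 2 and 3, above 0 in each. Gnl3, the nucleolar protein nucleostemin, had -0.11, -0.089 and -0.0041, below 0 in each.

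Of 21 genes of mTOR and growth control 20 were measured, 0 passed (0 unadjusted), and the median was -0.0060. Of 12 genes of the p53 response, which loss of ribosomal proteins can set off, 9 were measured and 0 passed. At an unadjusted p under 0.05 there were 4 of the 9, 3 higher and 1 lower, against 4.87% of all gene probes and 9.48% of those above background. Of the 9, 7 were above background on all arrays. Mdm2, the ligase that free ribosomal proteins can inhibit, had -0.11, -0.070 and -0.070, and the cell cycle inhibitor Cdkn1a had 0.21, 0.077 and 0.023 in the 3 pools. The pools differed in Cdkn1a (moderated F test, adjusted p = 0.0278). The others under that threshold were Phlda3, with 0.074, 0.038 and 0.067, and Sesn2, with 0.065, 0.088 and 0.020. The 76 measured genes of the mitochondrial ribosome had a median of 0.0020, and 0 passed (4 higher and 2 lower unadjusted).

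Relatives that the naming rule leaves out gave no call between mutant and reference. Of 8 such genes 4 were measured, and 2 of them (Rpl22l1 and Rpl7l1) were higher at an unadjusted p under 0.05, against 2.46% of all gene probes. The dye effect passed for 3 of the 4, against 25.6% of all gene probes and 36.8% of those above background. The test of pool differences passed for 2, against 4.4% and 9.98%. Of the 4 genes, 3 were above background on all arrays. Rpl22l1, a paralogue of Rpl22, had 0.18, 0.080 and 0.067 in pools 1, 2 and 3, a mean of 0.11 ± 0.063 (adjusted p = 0.908, limma), and a dye effect of -0.36 (adjusted p = 2.8e-05). Fau, whose product is cut to release a small subunit protein, had 0.16, 0.044 and -0.036 on its brightest probe, with pool 1 highest and pool 3 lowest (adjusted p of the pool differences = 0.0254, moderated F test by limma). A dimmer Fau probe had 0.083, -0.036 and 0.0405, with pool 2 lowest, and did not pass (adjusted p = 0.407 in the same test). Rpl36al had 0.020, -0.090 and 0.11, with pool 3 highest and pool 2 lowest (adjusted p = 0.0186 in the same test). Rpl7l1 had 0.042, 0.029 and 0.024.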

How the data were processed

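The data were 6 two-colour arrays. The deposited scanner files hold the raw intensity of each spot and its local background in both dyes. Per the protocol descriptions deposited with them, RNA was amplified with an oligo-dT primer and slides went through an Agilent scanner and ImaGene software. The authors' derived intensity values had print-tip loess (span 0.4) and kept the background, per those descriptions, and the deposited log2 ratios equalled the derived ones within 5e-06 (column medians -0.0022 to 0.0020). Software versions were not found in the labels or file headers.

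Computation used limma 3.58.1 in R 4.3.3: normexp background correction with an offset of 50, global loess (span 0.3) within arrays, and removal of 3223 control spots from 34992. The plan to leave out flagged spots was void, because no flag column was found. Ratios were averaged over the 2 dye-swapped arrays of each pool, and lmFit with eBayes tested their mean against 0, two-sided, with Benjamini-Hochberg adjustment over 31769 probes. The fit had 2 residual and 2.74 prior degrees of freedom. The dye effect was tested in the same way, and pool differences with an F test over the 6 arrays with a dye term. The steps were tested on simulated data. The number of arrays limits the precision. The p-values of the mutant ratio measure the spread between mutant pools. For the dye effect the genotype cancels in a swapped pair, so its p-values measure the technical spread between pairs of arrays. Those of the F test measure the technical spread between arrays of the same RNA.

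Symbols came from the platform annotation, 1 for each of 26000 gene probes. Updating them changed the name of 2 member probes (Rps3a to Rps3a1). Named genes are, by their brightest probe, the 8 highest and 8 lowest mutant ratios, the 5 highest and 5 lowest dye effects, the 5 brightest and 5 dimmest, the stalk genes, Rpsa, symbols ending in l, x or y, the 5 widest gaps between probes, and up to 10 calls a test. Others named were chosen after their values were seen. Members, gene lists and markers were chosen with earlier results of these data known. Alternatives covered background, scaling, filters, symbols, the fit, dye orientation and each pool left out.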

Additional observations from a re-analysis of the deposited data

How the results depend on the processing

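No paired analysis was possible because all mutant pools share a single reference pool, so no replicate number links 2 groups. The count of members that passed between mutant and reference was 0 with an offset of 0, no background subtraction, median centring, the authors' derived values, the filter on probes above background, an intensity trend, 1 probe per gene, updated symbols, and 6 arrays with the pool as a random block. It was 0 to 14 with 1 pool left out, 5 with the mutant in Cy5 alone and 11 with it in Cy3 alone. The members' median ratio was -0.0615 with median centring and 0.0027 to 0.0193 with 1 pool left out. The count of dye effects was 0 with an offset of 0, 112 with median centring, 34 with 1 probe per gene and 45 to 61 with 1 pool left out. The median dye effect was 0.0133, 0.81 and -0.0251 under the first 3 of these, and -0.0071 to 0.0029 with 1 pool left out. Pool differences numbered 0 with an offset of 0, 1 with no background subtraction, 0 with median centring and 6 with the authors' derived values. With an offset of 0 the dye effect turned towards Cy5 for Rpl12 (0.0261), Rplp1 (0.0052) and Rps3a (0.0344). With median centring it did so for Rpl11 (0.83), Rpl12 (1.05), Rpl13 (0.71), Rpl24 (0.87), Rpl27a (0.81), Rpl35 (0.91), Rpl9 (1.02 and 0.62), Rplp0 (0.96), Rplp1 (1.04), Rps23 (1.01), Rps26 (0.80), Rps3a (1.06) and Rpsa (0.41). With the mutant in Cy5 alone the ratio turned negative and passed for Rpl11 (-0.41), Rpl12 (-0.14) and Rpsa (-0.64), and in Cy3 alone it turned positive and passed for Rpl13 (0.29) and Rpl9 (0.18). Apart from the settings' own construction, the cause of these shifts was not tested. Rplp2, Rpl3l and 3 further probes near background carry little information.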

Other observations

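Probes of 3 ribosomal protein pseudogenes named on the platform also gave signal. Rpl30-ps1 had log2 mutant ratios of 0.0025, 0.027 and 0.091 in pools 1, 2 and 3, Rpl30-ps5 had 0.081, 0.018 and 0.038, and Rpl32-ps had 0.085, 0.0094 and 0.054. Each of these probes was above 0 in all 3 pools, as were 12.9% of all gene probes, and all ratios share the reference RNA. None of the probes passed after adjustment (limma adjusted p = 0.908 for each). Whether they detect the pseudogene or the parent message was not tested.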
